A study of Mus musculus with 12 samples.

Results

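The 28 genes described here make cholesterol or control the factors that switch its synthesis on. They were taken by gene symbol from the deposited table of 35275 genes, and all 28 were found, each under 1 identifier. The table covers 12 libraries of total RNA from the ileum, the last stretch of the small intestine, of C57BL/6 mouse pups on postnatal day 14. The litters came from 6 dams bought pregnant, of which 3 were restrained in a ventilated tube 2 h daily, starting on gestational day 7 and ending on day 19, and 3 stayed in their home cages. Each dam gave 1 male and 1 female pup, which gives males and females of control and of stressed dams as 4 groups with 3 libraries in each. Stressed refers to the dam, and the pups themselves were not restrained. The design asks whether stress during pregnancy is followed by altered gene expression in the offspring's ileum.

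Cells build cholesterol from acetyl-CoA through the mevalonate steps, which end in isoprenoid diphosphates, then through squalene and lanosterol, and then through a series of demethylations, reductions and an isomerisation to cholesterol. When membranes run low in sterol, Scap escorts the SREBP precursors from the endoplasmic reticulum to the Golgi, where the proteases encoded by Mbtps1 and Mbtps2 release the active factor. Insig1 and Insig2 hold the complex back when sterol is plentiful. SREBP-2, from Srebf2, chiefly drives the cholesterol genes and SREBP-1, from Srebf1, chiefly the fatty acid genes, and the intestine is a major site of cholesterol synthesis.

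The SREBP factors bind a sterol regulatory element, and cholesterol genes often also hold a CCAAT box for the factor NF-Y. RefSeq promoters on GRCm38.p6, the build the authors' notes name, were searched on both strands for TCACNCCAC, the core of that element, and for CCAAT. Entries were found for 24 of the 28 genes, and Fdps, Fdft1, Sqle and Stard4 had none. Within 250 bases before the start, TCACNCCAC was found in 1 gene of these 24 (4.17%), Hmgcs1. It was found for 1.22% of all gene symbols and in 1.05% of all 32851 promoter entries. CCAAT was found in 20 of the 24 genes (83.3%), against 37.5% of all gene symbols in the table. Acat2, Mbtps1, Mbtps2 and Scap held none in this window. The stretches of 3 genes are shown, Hmgcs1 by its match and Lss and Lbr chosen after their values were seen. Lss and Lbr had the smallest p in males among the other genes with CCAAT and at most 30 bases in annotated exons. Capitals mark TCACCCCAC and CCAAT, or its reverse ATTGG, and the marked letters do not overlap. The Hmgcs1 stretch is chr13:119690101-119690350 on the plus strand, that of Lss is chr10:76531355-76531604 on the plus strand, and that of Lbr is chr1:181842402-181842651 on the minus strand.
Hmgcs1: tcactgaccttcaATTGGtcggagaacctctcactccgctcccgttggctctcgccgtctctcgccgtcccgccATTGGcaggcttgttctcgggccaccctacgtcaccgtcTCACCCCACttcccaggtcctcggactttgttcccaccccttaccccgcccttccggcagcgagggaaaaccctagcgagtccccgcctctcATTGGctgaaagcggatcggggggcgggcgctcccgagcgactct
Lss: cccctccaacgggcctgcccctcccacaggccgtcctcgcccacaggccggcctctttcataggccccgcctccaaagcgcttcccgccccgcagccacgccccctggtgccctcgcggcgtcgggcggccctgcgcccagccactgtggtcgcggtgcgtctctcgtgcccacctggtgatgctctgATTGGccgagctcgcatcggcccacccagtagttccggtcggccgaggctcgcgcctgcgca
Lbr: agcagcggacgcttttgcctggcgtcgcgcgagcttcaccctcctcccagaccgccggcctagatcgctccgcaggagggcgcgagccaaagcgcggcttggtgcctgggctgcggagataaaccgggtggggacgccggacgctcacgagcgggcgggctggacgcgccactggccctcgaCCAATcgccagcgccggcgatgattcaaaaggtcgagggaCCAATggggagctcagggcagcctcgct

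In Hmgcs1 the core began 137 bases before the RefSeq start, with 3 CCAAT boxes around it. The gene start in the authors' table lies 111 bases further on, so that the core was 248 bases before it. For Lss the authors' table puts the start 17 bases before the RefSeq start, and for Lbr both are the same base. Lss held 1 CCAAT box and Lbr 2. A match of letters describes the promoter, and binding was not measured.

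Libraries held 16423523 to 22975526 counted reads, with the 6 male libraries all below the 6 female ones. Normalised read counts (CPM, scaled by TMM) are compared between libraries below. The tissue label was checked against 10 ileal enterocyte markers, whose summed level ran from 7815 to 10712 CPM. Both pups of control dam 3 stood apart. Their 10 markers of the proximal small intestine summed to 19685 CPM in the male and 8284 CPM in the female, against 1344 to 3438 CPM elsewhere. In control male 3 the ileal genes Fabp6 and Slc10a2 lay at 0.716 and 0.195 CPM, against at least 29.9 and 1.67 CPM in the other libraries. Lgmn was also lowest there, at 1389 CPM. The ileal list did not go one way, since Vil1, Cdh1 and Krt8 were highest in this library, at 1749, 731 and 2045 CPM. The 10 ileal markers summed to 8723 CPM in control male 3 and to 10712 CPM, the highest sum, in control female 3. The 8 exocrine pancreas markers summed to 68.8 and 59.6 CPM in these pups and to 8.37 to 26.4 CPM elsewhere, with Cpa1, Pnlip, Prss2 and Amy2a5 at 0 in every library. The noncoding gene Yam1 took 4.13% of the reads of stressed male 3, 1.39% of those of stressed male 1 and 1.00% of those of control male 1, against 0.171% to 0.4998% elsewhere. Stressed males 1 and 3 also gave the least to mitochondrial genes (2.18% and 1.16%), against 3.01% to 4.59%. In control male 1 the 6 smooth muscle markers summed to 7775 CPM, against 2771 to 5191 CPM in the rest. The part of these differences in the results below was not tested.

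All 28 genes were expressed and passed the filter on low counts, with at least 108 reads in every library. Levels can be compared between genes only per length, as FPKM (fragments per kilobase of gene, scaled to library total). Stard4, which carries sterol between membranes, was highest with a mean of 87.3 FPKM. Hmgcs1, the HMG-CoA synthase, followed at 66.9, Fdps, the farnesyl diphosphate synthase, at 52.0, and Insig1 at 47.3 FPKM. The 4 lowest were Mbtps2 at 6.82, the mevalonate kinase Mvk at 6.77, the sterol ketoreductase Hsd17b7 at 5.97 and the lanosterol synthase Lss at 4.70 FPKM. Lss and Stard4 ranged from 2.36 to 6.58 and from 52.0 to 124 FPKM over the 12 libraries, so the top and the bottom of the order did not meet. Neighbours in the order overlapped: Mbtps2 ranged from 4.71 to 8.69 and Mvk from 3.90 to 8.88 FPKM.

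**Figure D1:**
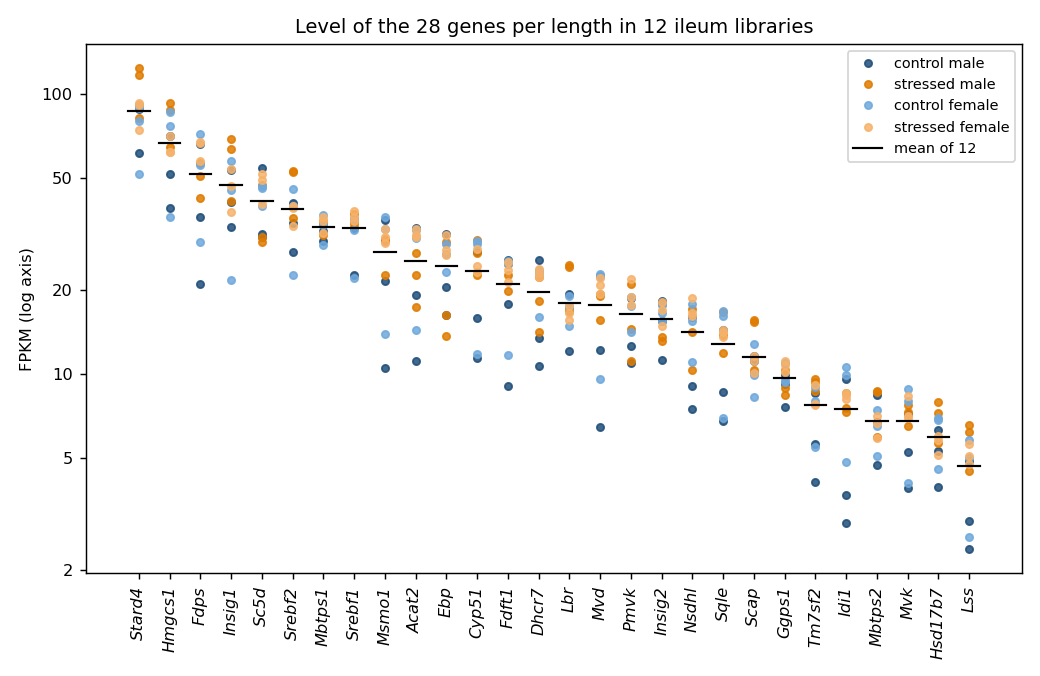
Level of each of the 28 genes in FPKM (log axis), with 1 point per library coloured by group and a bar at the mean of the 12 libraries. Stard4 (mean 87.3) stands at the top and Lss (4.70) at the bottom, and neighbours overlap.

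The genes differed in how much they varied over the 12 libraries. Ggps1, which makes geranylgeranyl diphosphate for protein prenylation, was the steadiest with a coefficient of variation of 6.76% in CPM, followed by Mbtps1 at 8.11% and Insig2 at 11.7%. The isopentenyl diphosphate isomerase Idi1 varied most, at 30.003%, with a highest library 3.42 times the lowest. Most of the low values came from a few control libraries. Control male 3 was the lowest of the 12 libraries for 12 of the 28 genes, against 15.9% of all 16102 genes tested. Control female 3 was the lowest for 9 and control male 1 for 4, and for these the share over all genes was not counted. Relative to each gene's mean over the libraries, on the log2 scale, the median of the 28 genes stood at -0.45 in control male 3, -0.48 in control female 3 and -0.33 in control male 1. In the other 9 libraries it lay between 0.06 and 0.27.

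For 14 of the 28 genes both pups of control dam 3 lay below all 10 other libraries, as did 7.42% of all 16102 genes tested. This grouping was chosen after the values were seen and is given as a description. These 14 were Acat2, Hmgcs1, Mvk, Mvd, Fdps, Fdft1, Sqle, Lss, Cyp51, Msmo1, Hsd17b7, Srebf2, Mbtps2 and Stard4, and so included all 3 genes from squalene to lanosterol. The squalene synthase Fdft1, for example, stood at 29.7 and 35.3 CPM in the male and female of control dam 3 and at no less than 50.9 CPM elsewhere. For the mevalonate diphosphate decarboxylase Mvd the values were 13.0 and 17.8 CPM, against at least 21.4 CPM elsewhere. Not all genes followed. Mbtps1 was highest of all in control male 3, at 169.7 CPM, but stood at 132 CPM in control female 3. Srebf1 was also highest in control male 3, at 162.8 CPM, and stood at 99.7 CPM in control female 3. Insig2 was highest of all in control female 3, at 50.2 CPM, and lowest of all in control male 3, at 34.6 CPM. In a bulk sample, fewer cells of a type and less RNA per cell cannot be told apart.

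**Figure D2:**
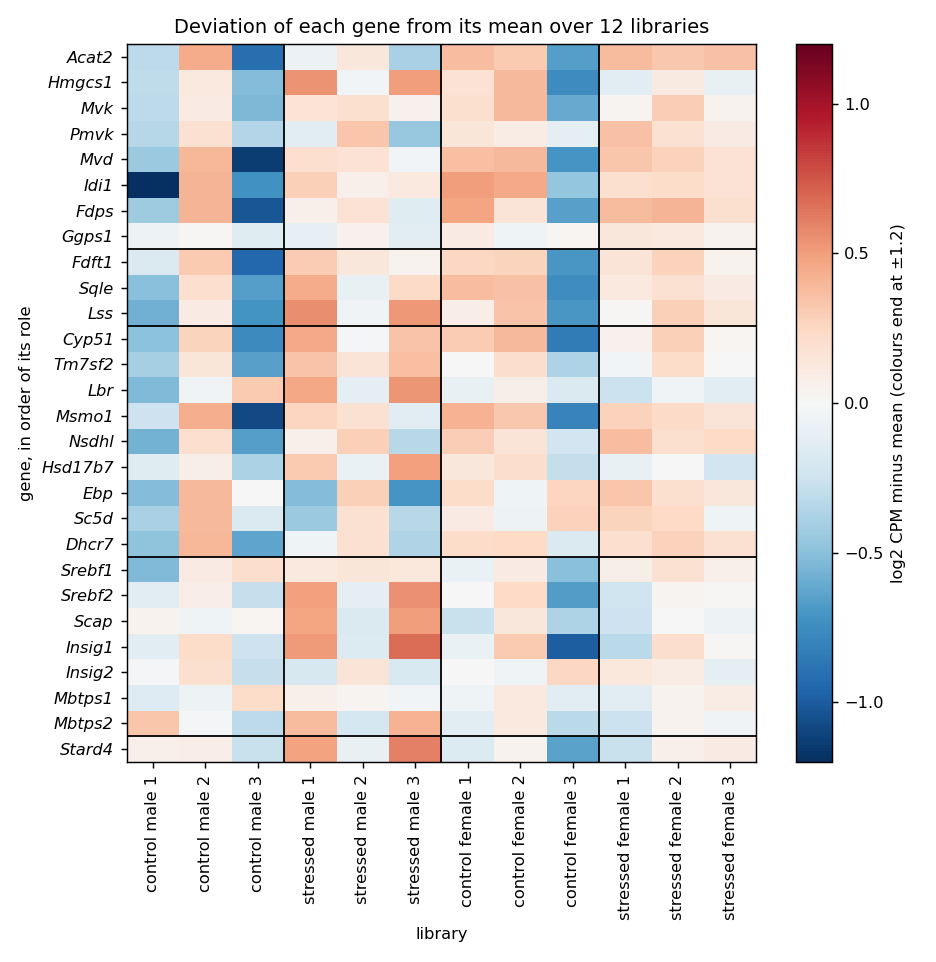
Deviation of each gene's log2 CPM from its mean over the 12 libraries, with genes in rows by role (divided by black lines: mevalonate steps, squalene to lanosterol, lanosterol to cholesterol, SREBP control, sterol transfer) and libraries in columns by group; red is above and blue below the mean, and colours end at 1.2 either way. Control male 3, control female 3 and control male 1 are mostly blue, and stressed males 1 and 3 are red for Srebf2, Scap, Insig1, Mbtps2 and Stard4 and blue for Insig2.

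A second pattern was seen in 2 stressed males, again described after the values were seen. Stressed male 3 was the highest library for 8 genes, namely Tm7sf2, Lbr, Hsd17b7, Srebf2, Scap, Insig1, Mbtps2 and Stard4, and stressed male 1 for Hmgcs1, Sqle, Lss and Cyp51. How often these libraries were the highest over all genes was not counted. Stressed male 3 was also the lowest for Pmvk and Ebp, and stressed male 1 for Sc5d, so that the genes did not all go one way in these libraries. The 8 genes highest in stressed male 3 had a median length of 4418 bases, against 2756 for the other 20. Across the 28 genes, log2 length and the deviation in that library had a Pearson r of 0.59, -0.74 and 0.65 for stressed males 1 to 3. In the other libraries it ran from -0.66 (stressed female 1) to 0.29 (control male 3). Over all 16102 genes the same r was 0.44, -0.33 and 0.49 for stressed males 1 to 3. Elsewhere it ran from -0.44 (stressed female 1) to 0.28 (control female 2). The points of each r are genes of 1 library and not independent.

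In male pups 25 of the 28 genes had a higher fitted level after stress of the dam, with a median log2 fold change of 0.33, while over all genes 51.7% were above 0 and the median was 0.01. None of the 28 passed the test. edgeR's quasi-likelihood test called 0 of the 28 at an adjusted p under 0.05 and 0% of the 16102 genes, and DESeq2 and limma-voom also called 0 of the 28. At an unadjusted p under 0.05 it found 2 of the 28, Lss and Tm7sf2, against 6.38% of all genes. The groups did not overlap, with stressed males higher, for 1 of the 28 (Tm7sf2), against 2.72% of all genes. Both shares lay near those of all genes. The median was 0.20, with 20 of 28 genes above 0, without both pups of control dam 3. Without control male 3 alone it was also 0.20, and without control male 2 it was 0.51. Without the 3 libraries rich in Yam1 reads, which leaves 1 stressed male, it was 0.13, with 20 above 0.

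All 8 genes of the mevalonate and isoprenoid steps were above 0 in males, with a median of 0.32, and 0 were called. Hmgcs1 stood at 168, 226 and 145 CPM in control males 1 to 3 and at 303, 204 and 295 CPM in stressed males 1 to 3. Stressed males 1 and 3 were above every control male and stressed male 2 was inside the control range. Its means were 179.7 ± 41.8 and 267 ± 55.3 CPM (SD, n = 3), and its log2 fold change was 0.57 ± 0.27 (SE, edgeR adjusted p = 0.752). In the authors' gene table (GRCm38), Hmgcs1 lies on chromosome 13 at 119690462 to 119708086, plus strand. Idi1 had a log2 fold change of 0.51 ± 0.36 and rested on low values of 8.91 and 12.7 CPM in control males 1 and 3, since control male 2 stood at 28.4 CPM, above all 3 stressed males. At the other end, the log2 fold change was 0.01 ± 0.11 for Ggps1, 0.06 ± 0.32 for the acetoacetyl-CoA thiolase Acat2 and 0.10 ± 0.21 for the phosphomevalonate kinase Pmvk. Mvd, Mvk and Fdps lay between, at 0.38, 0.37 and 0.26.

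The 3 genes that carry the pathway from farnesyl diphosphate through squalene to lanosterol had a median of 0.49 in males on that scale. Lss closes the ring system to form lanosterol, and had the highest log2 fold change of the 28 in males without a correction for gene length. It stood at 20.8, 33.6 and 18.9 CPM in control males and at 46.5, 30.5 and 45.4 CPM in stressed males 1 to 3. Stressed male 2 lay below control male 2, so the groups overlapped. Means were 24.4 ± 8.01 and 40.8 ± 8.89 CPM (SD, n = 3), and the log2 fold change was 0.74 ± 0.28 (edgeR adjusted p = 0.752, unadjusted p = 0.0235). Corrected for gene length, it was 0.46, at rank 5 of the 28, below Tm7sf2 (0.69), Hmgcs1 (0.55), Idi1 (0.51) and Mvd (0.47). Lss lies on chromosome 10 at 76531588 to 76557138, plus strand. Sqle, the squalene epoxidase, and Fdft1 had log2 fold changes of 0.49 ± 0.29 and 0.34 ± 0.30.

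Among the 9 genes from lanosterol to cholesterol, 7 were above 0 in males and the median was 0.32. Tm7sf2 and Lbr encode sterol reductases for the same step, and Lbr is also a receptor of the nuclear lamina. Tm7sf2 stood at 8.47, 12.6 and 7.03 CPM in control males and at 14.5, 12.7 and 14.7 CPM in stressed males 1 to 3. The groups did not overlap, but stressed male 2 (12.7 CPM) and control male 2 (12.6 CPM) nearly met. Means were 9.37 ± 2.90 and 13.9 ± 1.11 CPM (SD, n = 3), and the log2 fold change was 0.57 ± 0.22 (edgeR adjusted p = 0.752, unadjusted p = 0.0265). Tm7sf2 lies on chromosome 19 at 6062821 to 6068373, minus strand.

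Hsd17b7, which reduces the keto group left after demethylation, stood at 24.5, 28.5 and 20.8 CPM in control males and at 33.8, 25.5 and 38.2 CPM in stressed males 1 to 3. Its groups overlapped through stressed male 2, with means of 24.6 ± 3.87 and 32.5 ± 6.43 CPM (SD, n = 3). The log2 fold change was 0.40 ± 0.19 (edgeR adjusted p = 0.752). It lies on chromosome 1 at 169949535 to 169969241, minus strand. The lanosterol demethylase Cyp51 had a log2 fold change of 0.54 ± 0.32, Lbr of 0.37 ± 0.21, and Nsdhl and Msmo1, which remove methyl groups together, of 0.32 ± 0.24 and 0.29 ± 0.36. The value was 0.11 ± 0.25 for Dhcr7, the reductase of a last step. Ebp, the sterol isomerase, and Sc5d, the sterol desaturase that follows it, were below 0 at -0.25 ± 0.27 and -0.15 ± 0.22. Ebp stood at 28.5 and 24.9 CPM in stressed males 1 and 3 but at 50.2 CPM in stressed male 2.

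Of the 7 genes of SREBP control 6 were above 0 in males, with a median of 0.20. Srebf2 stood at 173, 199.96 and 155 CPM in control males and at 265, 175 and 277 CPM in stressed males 1 to 3. Stressed males 1 and 3 were the 2 highest of all 12 libraries, and stressed male 2 lay inside the control range. The means were 176 ± 22.5 and 239 ± 55.5 CPM (SD, n = 3), and the log2 fold change was 0.44 ± 0.23 (edgeR adjusted p = 0.752). Srebf2 lies on chromosome 15 at 82147266 to 82205376, plus strand. Without the 3 libraries rich in Yam1 reads its log2 fold change was -0.02. Insig1 had a log2 fold change of 0.42 ± 0.31, Scap of 0.30 ± 0.19, Mbtps2 of 0.20 ± 0.21 and Srebf1 of 0.17 ± 0.19. Mbtps1 and Insig2 were at 0.01 ± 0.13 and -0.05 ± 0.15.

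Stard4 stood at 454, 459 and 359 CPM in control males and at 605, 409 and 660 CPM in stressed males 1 to 3. It shared with Srebf2 the order of the stressed males, with stressed male 2 inside the control range. Means were 424 ± 56.2 and 558 ± 132 CPM (SD, n = 3), and the log2 fold change was 0.40 ± 0.22 (edgeR adjusted p = 0.756). Without the 3 libraries rich in Yam1 reads it was -0.00083, and under the same setting Lss was at 0.22, Tm7sf2 at 0.36, Hsd17b7 at 0.05 and Hmgcs1 at 0.14. Without both pups of control dam 3 these 6 genes lay between 0.29 (Stard4 and Hsd17b7) and 0.58 (Lss). Corrected for gene length, Stard4 was at 0.25.

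**Figure D3:**
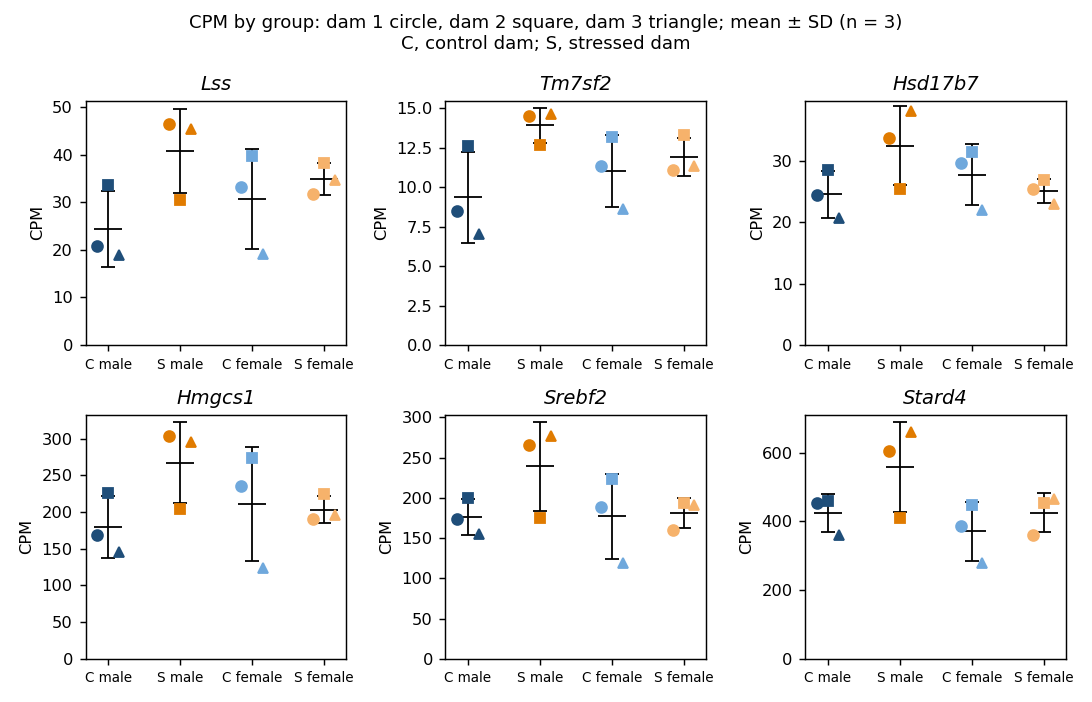
CPM of the 6 genes with the smallest p in males, by group (C, control dam; S, stressed dam), with the symbol giving the dam (circle 1, square 2, triangle 3) and bars for mean ± SD (n = 3). Stressed males 1 and 3 lie above the control males in all 6 genes, stressed male 2 lies among them in 5, and the female groups overlap.

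In female pups 23 of the 28 genes were above 0, with a median log2 fold change of 0.08, against 48.5% of all genes and a median of -0.0046. edgeR called 0 of the 28 and 0% of all genes, and DESeq2 and limma-voom also called 0 of the 28. At an unadjusted p under 0.05 there were 0 of the 28, against 0.298% of all genes, and the stressed females lay wholly above the controls for 0 of the 28, against 3.07% of all genes. The count depended on control female 3: without both pups of control dam 3 it was 10 of 28, with a median of -0.06. It was also 10 of 28 without control female 3 alone and 14 of 28 without stressed female 2.

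Srebf1, which encodes SREBP-1, had the smallest p in females. It stood at 133, 151 and 99.7 CPM in control females and at 148, 159.9 and 148 CPM in stressed females 1 to 3, and its log2 fold change was 0.25 ± 0.19 (edgeR adjusted p = 1). Stard4 stood at 386, 447 and 279 CPM against 360.4, 453 and 464 CPM, a log2 fold change of 0.20 ± 0.22. In both genes control female 3 was the lowest, and the groups overlapped. Acat2 stood at 69.7, 67.3 and 34.0 CPM in control females and at 70.4, 67.7 and 68.9 CPM in stressed females 1 to 3. Fdps stood at 84.7, 68.1 and 38.7 CPM against 79.5, 80.9 and 69.6 CPM. Their log2 fold changes of 0.28 ± 0.32 and 0.26 ± 0.33 came with control female 3 alone low, and without both pups of control dam 3 they were 0.0068 and 0.0017. Pmvk stood at 21.3, 20.4 and 17.7 CPM against 24.7, 21.9 and 20.5 CPM, with a log2 fold change of 0.18 ± 0.21. Hsd17b7 was the only one of these 6 below 0, at -0.15 ± 0.19, with 29.8, 31.4 and 22.1 CPM in control and 25.4, 26.9 and 23.005 CPM in stressed females 1 to 3. The adjusted p from edgeR was 1 for each of the 6.

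**Figure D4:**
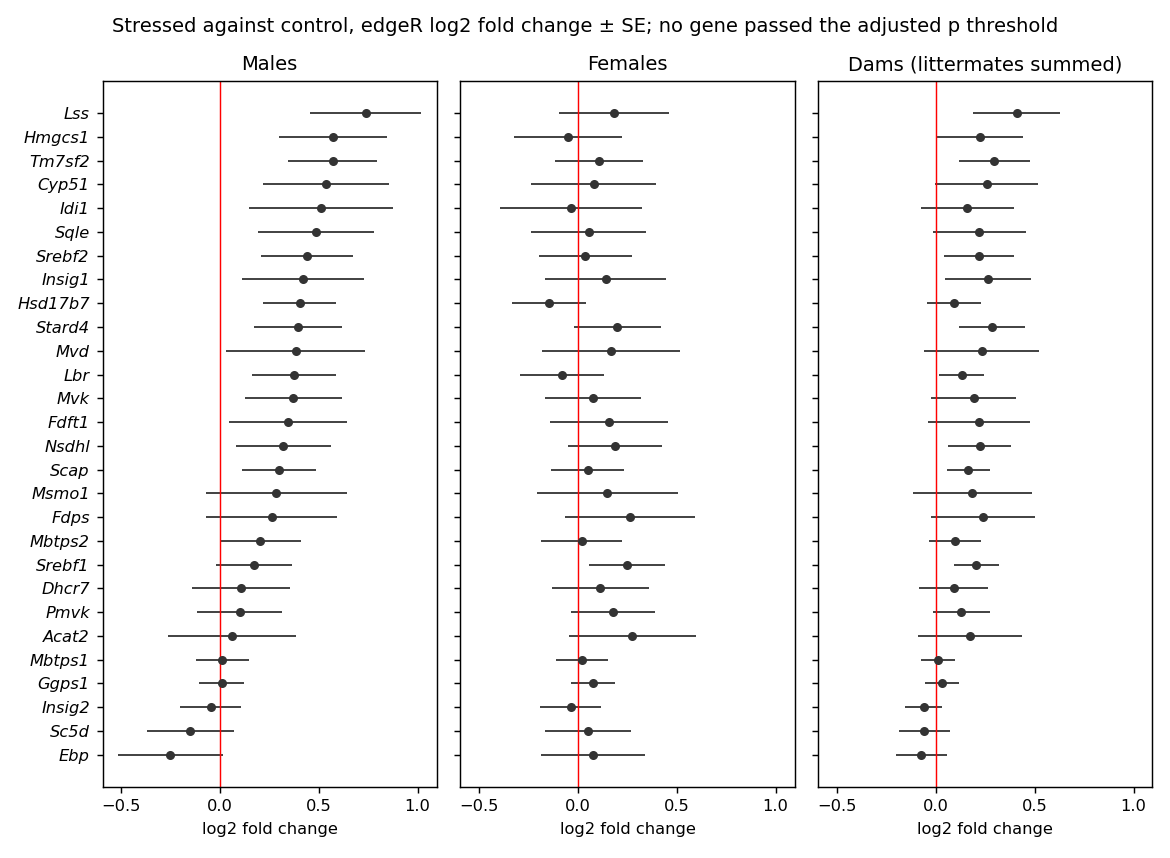
Log2 fold change of stressed against control (x axis) ± SE from edgeR for the 28 genes (rows, ordered by the value in males), in males, in females, and over dams with littermates summed; the red line marks 0. Points in males reach 0.74 (Lss), those in females stay between -0.15 and 0.28, and no gene passed the test.

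The change in males was set against that in females as an interaction. Of the 28 genes 18 had a larger value in males, with a median difference of 0.19, against a median of -0.00025 over all genes. edgeR called 0 of the 28 and 0% of all genes, DESeq2 and limma-voom also 0 of the 28, and at an unadjusted p under 0.05 there were 0, against 2.15% of all genes. So a difference between the sexes in the response was not shown for any of the 28. Hsd17b7 had the smallest p, with a difference of 0.55 ± 0.26 on the log2 scale (edgeR adjusted p = 0.999). Hmgcs1 had the largest difference, 0.62 ± 0.39, and stood in females at 235, 273 and 123 CPM in controls and at 190.2, 224 and 196 CPM in the stressed. For Lss, at 0.55 ± 0.40, the female values were 33.1, 39.8 and 19.2 CPM against 31.7, 38.3 and 34.7 CPM. In these genes control female 3 lay below every stressed female and control female 2 above them all.

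Tm7sf2, with a difference of 0.46 ± 0.32, stood in females at 11.3, 13.2 and 8.62 CPM in controls and at 11.1, 13.3 and 11.3 CPM in the stressed. Srebf2, at 0.40 ± 0.33, stood at 188, 223 and 119 CPM against 160.3, 193 and 191 CPM. The sixth, Lbr, had a difference of 0.45 ± 0.30. Its male values were 43.2, 60.7 and 78.2 CPM after no stress and 86.6, 58.3 and 91.0 CPM after stress, dams 1 to 3. Its female values were 58.8, 65.8 and 55.5 CPM and 52.5, 60.8 and 57.3 CPM in the same order. Without the 3 libraries rich in Yam1 reads the difference was -0.17 for Lbr and -0.06 for Srebf2. Corrected for gene length, it was 0.21 for Lss and 0.23 for Srebf2. The median difference was 0.46 without control male 2, 0.40 without control female 3, 0.03 without control female 2, 0.08 without control male 3, 0.11 without stressed male 1 and 0.12 without control female 1.

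Between the sexes, over both treatments, the roles parted in direction without any gene passing the test. Of the SREBP control genes 6 of 7 were higher in males in value (median 0.20), while 7 of 8 mevalonate genes (median -0.24) and 7 of 9 genes after lanosterol (median -0.18) were lower. The median was -0.10 over the 28, with 10 above 0, and -0.0037 over all genes. edgeR called 0 of the 28, against 0.0497% of all genes, DESeq2 and limma-voom also called 0, and at an unadjusted p under 0.05 there were 0 of the 28, against 12% of all genes. With littermates paired by the dam as a block, 4 of the 28 had an unadjusted p under 0.05, against 9.84% of all genes, and 0 were called. The roles also differed in gene length, with 2697 to 4989 bases for SREBP control and 1194 to 3233 for the mevalonate genes. Corrected for gene length, the median over the 28 was -0.06. Mbtps1 then moved from 0.02 to -0.02 and Tm7sf2 from -0.0031 to 0.12, and the other genes kept their sign. Sizes also moved. Every mevalonate gene rose in value, as Fdps did from -0.29 to -0.16. Of the SREBP control genes Insig1 and Insig2 rose and the others fell, as Srebf2 did from 0.20 to 0.11. The part of gene length in the split by role was not tested.

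Scap, the escort of the SREBP precursors, ran from 42.4 to 67.8 CPM in males (median 48.8) and from 36.9 to 52.7 CPM in females (median 43.0). Its log2 fold change was 0.28 ± 0.13 (edgeR adjusted p = 0.411). When stressed male 2 was left out it was the 1 gene of the 28 called, at 0.39 with an edgeR adjusted p of 0.0473, but that fit called 1384 of 16389 genes (8.44%). It was at 0.03 without the 3 libraries rich in Yam1 reads. Stard4 ran from 359 to 659.8 CPM in males (median 457) and from 279 to 464 CPM in females (median 416), a log2 fold change of 0.29 ± 0.16. Lbr ran from 43.2 to 91.0 CPM (median 69.5) and from 52.5 to 65.8 CPM (median 58.0), at 0.24 ± 0.15. In these 3 genes the males spread above and, in Lbr, below the females. Nsdhl ran from 18.5 to 36.2 CPM in males (median 27.1) and from 25.2 to 38.5 CPM in females (median 34.5), at -0.32 ± 0.17. Ebp ran from 24.9 to 54.0 CPM (median 34.7) and from 39.5 to 52.0 CPM (median 47.5), at -0.31 ± 0.19, and at 0.06 without the 3 libraries rich in Yam1 reads. Dhcr7 ran from 34.3 to 70.8 CPM (median 46.7) and from 47.3 to 64.9 CPM (median 62.0), at -0.28 ± 0.17. All 6 genes overlapped between the sexes. Nsdhl and Ebp, like Mbtps2, lie on the X chromosome. Across the 28 genes the log2 fold change between the sexes and log2 gene length had a Pearson r of 0.62, and across all 16102 genes of 0.29, as a description over genes that share the same libraries.

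With littermates summed, the dam was the replicate, which is the unit that was stressed. Of the 28 genes 25 were above 0 in pups of stressed dams, with a median log2 fold change of 0.19, against 51.3% of all 16749 genes and a median of 0.0047. edgeR called 0 of the 28 and 0% of all genes, DESeq2 and limma-voom also called 0 of the 28, and at an unadjusted p under 0.05 there were 0, against 1.36% of all genes. The stressed dams lay wholly above the controls for 0 of the 28, against 2.53% of all genes. Without control dam 3 only 13 of the 28 were above 0 and the median was -0.0077. Without control dam 2 the median was 0.39.

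Lss stood at 28.004, 37.4 and 19.0 CPM in control dams 1 to 3 and at 38.0, 35.01 and 39.0 CPM in stressed dams 1 to 3, a log2 fold change of 0.41 ± 0.22 (edgeR adjusted p = 0.99988). Srebf1 stood at 119, 153 and 126 CPM against 148, 159.9 and 149.9 CPM, at 0.20 ± 0.11. Stard4 stood at 418, 459.9 and 312 CPM against 468, 437 and 544 CPM, at 0.28 ± 0.16. In all 3 genes control dam 2 lay among the stressed dams. Tm7sf2 stood at 10.2, 13.1 and 7.94 CPM against 12.5, 13.2 and 12.7 CPM, at 0.30 ± 0.18. Scap stood at 43.9, 50.2 and 41.7 CPM against 51.8, 45.6 and 54.9 CPM, at 0.17 ± 0.11, and Nsdhl at 29.3, 34.0 and 22.4 CPM against 34.5, 35.4 and 30.02 CPM, at 0.22 ± 0.16. Control dam 3 was the lowest of the 6 dams in 5 of these genes, Srebf1 being the exception with control dam 1. Without control dam 3 the log2 fold change was 0.20 for Lss, 0.14 for Tm7sf2 and for Stard4, and 0.08 for Nsdhl.

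**Figure D5:**
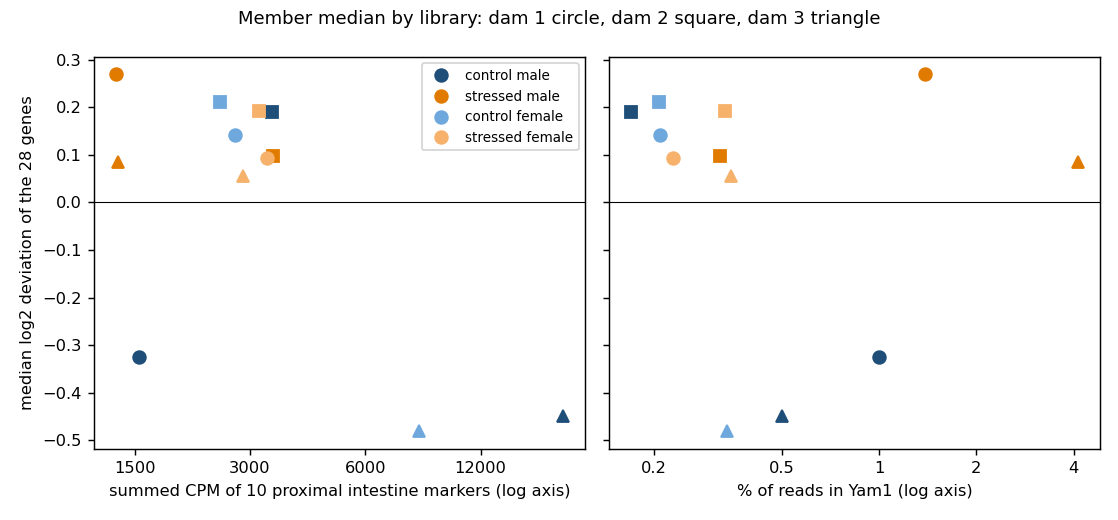
Median log2 deviation of the 28 genes in each library (y axis) against the summed CPM of 10 proximal intestine markers (left) and against the percentage of reads in Yam1 (right), both on log axes, coloured by group and with the symbol giving the dam. The 2 pups of control dam 3 (triangles at 19685 and 8284 CPM) and control male 1 lie below -0.3, and the other 9 libraries lie between 0.06 and 0.27.

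Genes of 4 neighbouring pathways were set beside the 28 genes, and 0 of them were called in any of the 5 comparisons. Of 18 fatty acid synthesis genes under SREBP-1, 12 were above 0 in males (median 0.32), with 6 at an unadjusted p under 0.05, where over all genes 51.7% were above 0 and 6.38% had such a p. Acaca, the acetyl-CoA carboxylase, stood at 50.8, 50.1 and 44.0 CPM in control males and at 113, 52.1 and 131 CPM in stressed males 1 to 3, a log2 fold change of 1.03 ± 0.31. The fatty acid synthase Fasn stood at 106, 118 and 82.0 CPM against 247, 112 and 298 CPM, at 1.10 ± 0.35 (edgeR adjusted p = 0.752 for both). Stressed males 1 and 3 were high in both and stressed male 2 was not, as in Srebf2. Over all 16102 genes the deviation and log2 length had a Pearson r of 0.44, -0.33 and 0.49 in stressed males 1 to 3. For these 18 genes no value is given with a correction for gene length or without the Yam1-rich libraries, and the part of either was not tested. In females 9 of these 18 genes were above 0, with a median of -0.0049.

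Of 19 genes of sterol export, esterification and trafficking 7 were above 0 in males (median -0.14). The lysosomal acid lipase gene Lipa had -0.38 ± 0.14 and Mylip, which marks lipoprotein receptors for degradation, 0.37 ± 0.17. Of 17 partners of SREBP control in protein degradation and COPII transport 7 were above 0 (median -0.08), with Aup1 at -0.38 ± 0.17 and Sar1b, a COPII GTPase, at -0.54 ± 0.26. Of 14 genes of the isoprenoid branch 8 were above 0 (median 0.02), with Pggt1b, a subunit of the geranylgeranyl transferase, at 0.48 ± 0.21 and Dhdds, of dolichol synthesis, at 0.15 ± 0.12.

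The authors' deposited table of comparisons put 23 of the 28 genes above 0 in males (median log2 fold change 0.22, smallest adjusted p 0.99993). For females the authors' deposited table gave 23 of 28 with a median of 0.05 and adjusted p-values of 1, and for pups of both sexes 25 of 28 with a median of 0.15 and a smallest adjusted p of 0.9996. For Lss the authors' deposited table gave log2 fold changes of 0.50 in males, 0.09 in females and 0.31 over both sexes.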

How the data were processed

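Raw read counts per gene were deposited by the authors for 12 libraries, beside FPKM values. The authors' table of comparisons holds log2 fold changes and, per the file headers, a raw and an adjusted p-value. Named in the submitters' processing notes are GRCm38 (mm10), edgeR 3.16.5 and DESeq2, HTSeq 0.6.1, STAR 2.5 and TopHat. Which annotation was counted is not stated in these sources. In all 240813 nonzero cells FPKM followed from the count, the gene's length and the library total.

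Counts were tested with edgeR 4.0.16 under R 4.3.3 (TMM, filterByExpr, quasi-likelihood F test), in 1 fit of the 4 groups (16102 genes, 8 residual degrees of freedom) and, with littermates summed, over dams (16749 genes, 4 residual degrees of freedom). Benjamini-Hochberg adjustment ran over all genes tested, and the threshold was 0.05. SEs are the log2 fold change divided by the root of F. Deviations use log2(CPM + 0.5). The tests were tested on simulated data, drawn with a spread common to all genes and no effect of litter or gene length. That simulation cannot show how they behave on these libraries. The smallest p an exact test of 3 against 3 allows is 0.1.

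The 28 genes, the roles and the pathway and marker lists were chosen with earlier results of these data known. In each comparison the 6 genes of smallest unadjusted p are given by library, per length the 4 highest and 4 lowest, and of each pathway list the 2 of smallest p in males. Tried as alternatives were DESeq2 1.42.0, median-ratio size factors, limma-voom and limma 3.58.1 on log2(FPKM + 1) and log2(FPKM + 0.1), other filters, 1 sex alone, blocks by dam or dam number, and each library left out. Chosen after the data were seen were the fits without both pups of control dam 3, without the 3 Yam1-rich libraries (whose lone stressed male is assumed to vary like the other groups), and with a correction for gene length (a loess trend of span 0.5 over genes averaging 1 CPM or more). The labels' dam number identifies the litter and pairs brother with sister, but does not pair a stressed with a control dam. Deviations over genes correlated by -0.45 to 0.58 within litters and by -0.39 to 0.36 across treatments at the same number. Promoters are RefSeq entries of 300 bases; stretches with more than 30 bases in annotated exons are not printed. Bases just after the RefSeq start were found unbroken in a GENCODE transcript of the gene for 26 of 32 entries, but not for Hmgcs1 and Lbr.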

Additional observations from a re-analysis of the deposited data

How the results depend on the processing

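Over 34 alternative settings 1111 values were recomputed. Of these, 5 were labelled reversed, 30 moved and 1 stronger, and the other 1075 were not marked as altered. These 1075 include log2 fold changes that shrank towards 0. Without the 3 libraries rich in Yam1 reads, Lss in males went from 0.74 to 0.22 and Hsd17b7 from 0.40 to 0.05. Without both pups of control dam 3, Fdps in females went from 0.26 to 0.0017 and Acat2 from 0.28 to 0.0068. Single values also grew, as Lss in males did to 1.02 without control male 2. A median that crossed 0 was not labelled reversed. The median in females went from 0.08 to -0.06 without both pups of control dam 3. Over dams it went from 0.19 to -0.0077 without control dam 3. The 5 labelled reversed were values of single genes without the 3 libraries rich in Yam1 reads. In males these were Srebf2 (-0.019) and Stard4 (-0.00083). In the difference of the changes they were Lbr (-0.17) and Srebf2 (-0.057), and between the sexes Ebp (0.063). The cause was not tested. Without both pups of control dam 3, 10 of the 28 genes were above 0 in females.

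Leaving out each library or dam in turn, the median ran from 0.20 to 0.51 in males, -0.06 to 0.21 in females, 0.031 to 0.46 for the difference, -0.21 to -0.0085 between the sexes and -0.0077 to 0.39 over dams. The number of genes above 0 ran from 20 to 26 in males, 10 to 23 in females, 16 to 24 for the difference, 7 to 14 between the sexes and 13 to 27 over dams. The number called was 0 to 1 between the sexes (Scap, without stressed male 2, where 8.44% of all genes were called) and 0 in the other comparisons. At an unadjusted p under 0.05 there were 0 to 12 genes in males (12 without control male 2, where 8.51% of all genes had such a p, and 9 without stressed male 2, where 20.7% did). The number was 0 without control male 1, where 14.2% of all genes had such a p. It was also 0 without stressed male 1 (2.53% of all genes) and without stressed male 3 (2.02%).

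With the dam number as replicate block the median was 0.38 in males, 0.12 in females and 0.23 over dams, and with littermates paired by a replicate block 0.18 for the difference and -0.11 between the sexes; no call was altered by a block. Corrected for gene length, the median was 0.29 in males with 24 above 0, and 0.19 over dams with 24 above 0, while Lss was 0.46 in males and 0.21 in the difference and Stard4 0.25 in males. In females it was 0.13 with limma-voom and 0.15 and 0.17 on log2(FPKM + 1) and log2(FPKM + 0.1). With 3 samples a group, the SE of single genes in males ran up to 0.36 on the log2 scale. A change of that size was not detectable in such a gene, and changes well above 1 SE could also go uncalled. Lss, at 0.74 with an SE of 0.28, had an edgeR adjusted p of 0.752.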
